A study of Mus musculus with 30 samples.

Results

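Genes of bone morphogenetic protein (BMP) signalling were followed through blood differentiation of mouse embryonic stem cells (ESC). They were the ligands Bmp2 and Bmp4, the inhibitors Bambi, Smad6 and Smad7, and the targets Id1, Id2, Id3 and Id4. These 9 genes were taken by symbol from the deposited table, which held all of them among 14685 genes. RNA was sequenced from 5 populations in 3 genotypes with 2 biological replicates each, 30 samples in all. All cells were of the E14 ESC line and were WT, Sp1ΔDBD/ΔDBD or Sp3-/- (labelled Sp3KO). In Sp1ΔDBD/ΔDBD cells both copies of the transcription factor Sp1 lack the DNA-binding domain, and the study describes the remaining truncated protein as a hypomorph. Sp3-/- cells lack the related factor Sp3. ESC were kept on fibroblast feeders and passaged without them before differentiation, Flk1+ cells were isolated from embryoid bodies with magnetic beads, and 3 later populations were sorted from day 2 of blast culture: first haemogenic endothelium (HE1, KIT+ CD41- Tie2+), second haemogenic endothelium (HE2, KIT+ CD41+ Tie2+) and progenitors (KIT+ CD41+ Tie2-). The labels name no clones and the length of embryoid body culture was set for each cell line, so an effect of a mutation cannot be told apart from a difference between lines or culture times. The comparisons ask how these genes moved along differentiation and whether loss of either factor altered them.

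BMP ligands bind paired serine and threonine kinase receptors, which phosphorylate Smad1, Smad5 and Smad9. These enter the nucleus with Smad4 and switch on the Id genes, whose proteins bind E proteins and keep them off DNA, and the same signal switches on its own inhibitors Smad6, Smad7 and Bambi. Bmp4 is known for its part in forming mesoderm and blood, and is often added to ESC cultures for that purpose. Sp1 and Sp3 both bind GC boxes.

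Promoter sequences are shown for Smad6, the gene altered in ESC of both mutants, and for Bmp4, which reached the higher level of the pair of ligands. Promoter windows were taken for 5 of the 9 genes, Bmp4, Smad6, Id2, Id3 and Id4, with start sites from RefSeq (GRCm38.p6). Those of Bmp2, Bambi, Smad7 and Id1 were not examined. The 250 bases before the start are given 5′ to 3′ on the strand of the gene, and capitals mark each GC box, GGGCGG on either strand. The Smad6 window lies at chr9:64022060-64022309 and that of Bmp4 at chr14:46390670-46390919, both on the minus strand, and neither overlaps a GENCODE exon.
Smad6: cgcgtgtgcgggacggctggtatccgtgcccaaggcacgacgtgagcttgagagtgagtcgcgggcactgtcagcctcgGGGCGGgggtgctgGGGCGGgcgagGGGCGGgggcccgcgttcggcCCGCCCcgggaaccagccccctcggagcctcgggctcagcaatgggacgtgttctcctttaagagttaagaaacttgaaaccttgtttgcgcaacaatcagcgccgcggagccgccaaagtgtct
Bmp4: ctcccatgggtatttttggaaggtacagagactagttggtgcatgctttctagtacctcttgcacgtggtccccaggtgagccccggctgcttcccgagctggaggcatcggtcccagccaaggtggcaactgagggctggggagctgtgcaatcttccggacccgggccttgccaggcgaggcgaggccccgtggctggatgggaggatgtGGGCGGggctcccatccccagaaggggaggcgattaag

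The Smad6 window held 4 GC boxes, beginning 171, 157, 146 and 125 bases before the start, and the Bmp4 window held 1, beginning 38 bases before it. The windows of Id2, Id3 and Id4 held 1, 2 and 5. Unlike those of Smad6, Bmp4 and Id4, the Id2 window overlaps GENCODE exons by 161 of its 250 bases and the Id3 window by all 250. Of all 32851 promoters of this length, 32.7% held at least 1 GC box and 16.7% held 2 or more. A BMP Smad element, GGCGCC on either strand, was found in the windows of Id2 and Id4, 1 in each, and in 9.59% of all promoters. In Id4 this element abutted a GC box.

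The values are FPKM (fragments per kilobase of transcript, scaled to the mapped fragments of the library), which the authors quantile normalised over all samples, and the number of reads behind them is unknown. They were compared on the log2(FPKM + 0.1) scale with limma over the 14525 genes above 1 FPKM in at least 1 sample, which included all 9 genes, and "called" below means a Benjamini-Hochberg adjusted p under 0.05. Differences on this scale understate the change of genes at low levels, and n is 2 for every mean. Sp3 lay between 3.38 and 7.79 FPKM in the 10 Sp3-/- samples and between 25.9 and 58.1 in WT. Sp1 was at 14.8 to 40.5 FPKM in Sp1ΔDBD/ΔDBD cells and at 24.9 to 52.4 in WT, and since the deletion takes only the DNA-binding domain, the level of the gene does not check the label. The marker lists reached their highest sums in the populations they stand for, some with overlap. The 5 ESC markers summed to 1775 to 2416 FPKM in ESC, the Flk1 mesoderm list to 318 to 594 in Flk1+ cells, the endothelial list to 713 to 1098 in HE1 and the progenitor list to 184 to 352 in progenitors. The Flk1 mesoderm list overlapped with HE1, at 213 to 362, and the progenitor list with HE2, at 160 to 238. Some single markers went the other way. Itga2b of the progenitor list was at 84.6 to 147 FPKM in HE2 against 59.1 to 136 in progenitors. Kdr of the Flk1 mesoderm list was at 208 to 358 in HE1 against 165 to 257 in Flk1+ cells. In blast culture, replicates differed in genes of other cell types. WT HE1 replicate 1 had a sum of 1937 over 7 mesenchyme markers against 376 in replicate 2, and of 810 over 5 epithelial markers against 77.7. Sp1ΔDBD/ΔDBD HE1 likewise had 1098 against 257 and 253 against 11.6, and in the 3 Sp3-/- populations the replicates differed less, between 63.6 and 215 for mesenchyme. In these pools a smaller number of cells of one kind and less RNA per cell cannot be told apart.

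In WT cells each of the 9 genes had its highest mean in Flk1+ cells (Bmp4 and Bambi) or in HE1 (the others), although for Bmp2, Id2 and Id4 the replicates overlapped with the next population. The lowest mean was that of ESC for Bmp2, Bambi and Smad6 and that of progenitors for the others. Between populations lay 67.5% (Id2) to 97.4% (Bmp2) of the variance of each gene over the 30 samples, and between genotypes within a population 1.11% (Bmp2) to 24.5% (Id2). The SD between replicates was 0.179 on the log2 scale for Smad7 and 0.684 for Id4, beside a median of 0.253 over all genes tested. Bmp2, Bmp4, Id1, Id2 and Id4 were the least precise, from 0.445 upwards.

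**Figure D1:**
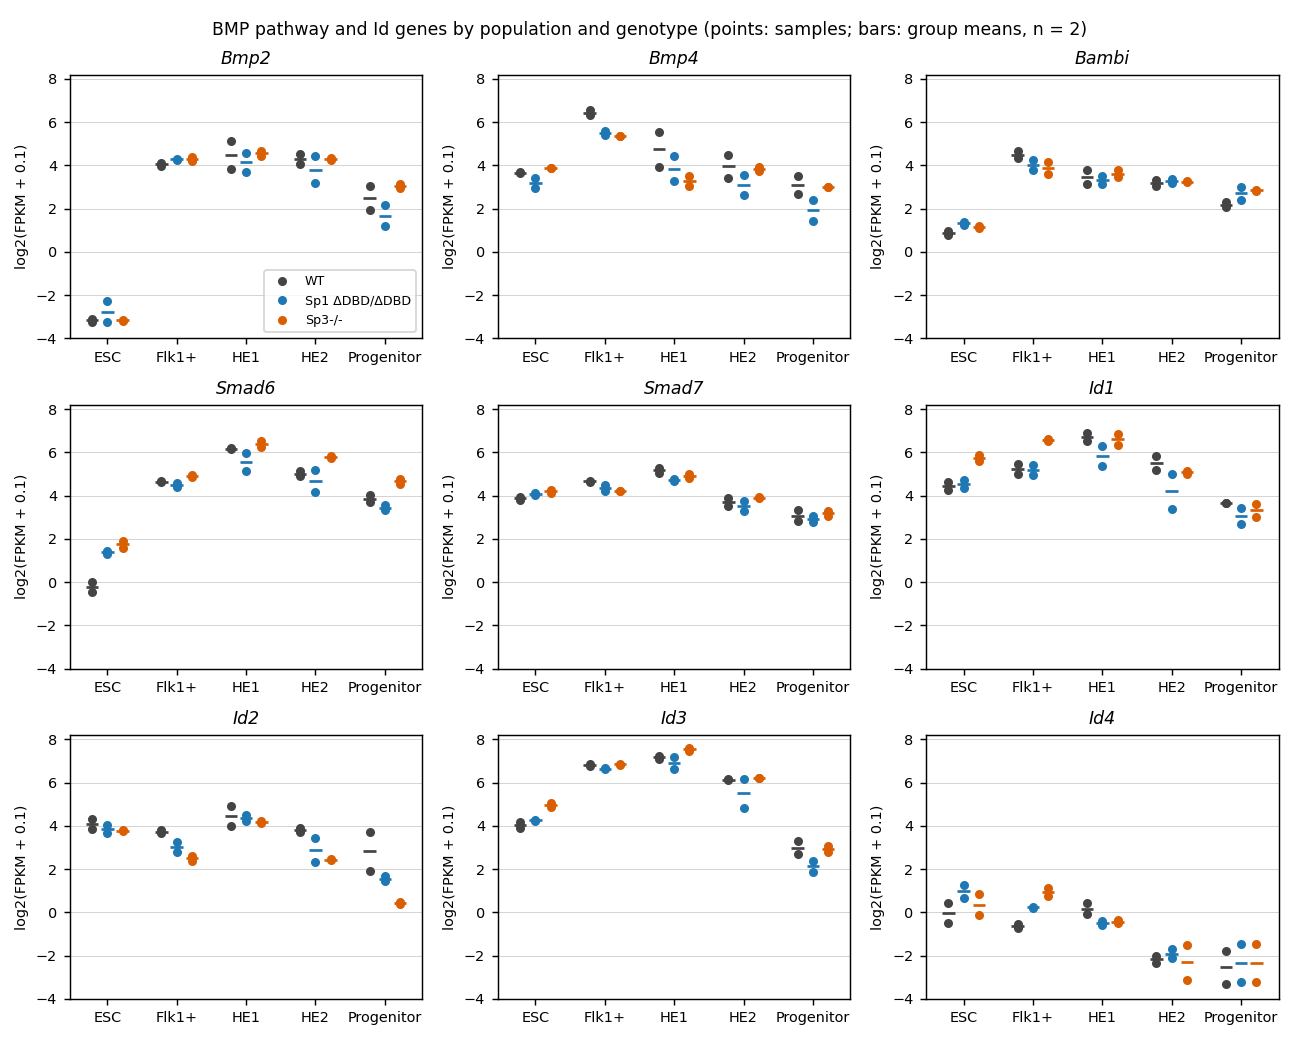
Each panel shows 1 gene, with the population on the horizontal axis and log2(FPKM + 0.1) on the vertical axis. Points are samples and short bars the mean of 2 replicates for WT, Sp1ΔDBD/ΔDBD and Sp3-/- cells. Bmp2 is near the floor in ESC, Id4 does not exceed 2.29 FPKM, and Smad6 in ESC separates both mutants from WT.

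Both ligands rose when mesoderm formed. Bmp2 lay at 0.0059 and 0.0164 FPKM in WT ESC, at 17.4 and 15.5 in Flk1+ cells, at 35.2 and 14.1 in HE1, at 22.9 and 16.9 in HE2, and progenitors had 8.17 and 3.78. It was therefore nearly silent in ESC, similar in the next 3 populations, whose replicates overlapped, and lower in progenitors. The rise from ESC to Flk1+ cells was 7.21 ± 0.46 (SE) on the log2 scale (limma adjusted p = 2.13e-10) and the fall from HE2 to progenitors was -1.80 ± 0.46 (adjusted p = 0.0113). Without progenitor WT replicate 2 or HE2 WT replicate 1 the fall was no longer called (-1.26, adjusted p = 0.153, and -1.58, adjusted p = 0.101).

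Bmp4 followed another course. WT values were 12.8 and 12.4 FPKM in ESC, 79.1 and 94.8 in Flk1+ cells, 47.2 and 15.1 in HE1, 22.5 and 10.7 in HE2, and progenitors had 11.1 and 6.27. Flk1+ cells stood above every other WT sample, at a level higher than that of 95.2% of genes, while HE2 overlapped with HE1 and with ESC. Bmp4 rose by 2.77 ± 0.47 on the log2 scale from ESC (limma adjusted p = 6.76e-05) and fell by 1.69 from Flk1+ to HE1 (SE 0.47, adjusted p = 0.00544). The later differences, -0.78 from HE1 to HE2 and -0.88 from HE2 to progenitors, were not called (adjusted p = 0.264 and 0.266). The fall into HE1 turned on WT HE1 replicate 2, since without it the difference was -0.88 (adjusted p = 0.163), and without replicate 1 it was -2.51. On the opposite strand Bmp4 overlaps the protein-coding model Gm15217 by 89 bases and the antisense model Gm15222 by 1764, and how strand was used in the quantification is not given in the sources used here, so reads of these genes may be mixed.

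Levels of both ligands moved with the mesenchyme markers within the sorted groups. In 9 of 9 replicate pairs of HE1, HE2 and progenitors, the sample with the higher mesenchyme sum had the higher Bmp2 and also the higher Bmp4, and for epithelial markers this held in 8 of 9 pairs for each. Erythroid and endothelial markers gave 7 and 4 of 9 pairs for each ligand. Among the other genes it held in 8 of 9 mesenchyme pairs for Id1, and in 7 of 9 for Smad7 and Id3. For Id2 it held in 6 of 9, for Smad6 and Id4 in 5 of 9 and for Bambi in 3 of 9. The 9 pairs are not independent, since same-numbered samples deviated together across these populations in WT and Sp1ΔDBD/ΔDBD cells (correlations from 0.382 to 0.649). Replicate 1 had the higher epithelial sum in every pair, and the higher mesenchyme sum in all but Sp3-/- progenitors. The part of mesenchyme cells in the ligand levels was not tested. All 7 mesenchyme markers were above 0 in every HE1 sample, with Acta2 and Tagln at up to 1138 and 517 FPKM and Thy1 at 0.142 or less. Among the epithelial markers Krt8 and Krt18 reached 386 and 323 FPKM in HE1, while Epcam and Cdh1 were at 0.448 and 2.33 or less.

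**Figure D2:**
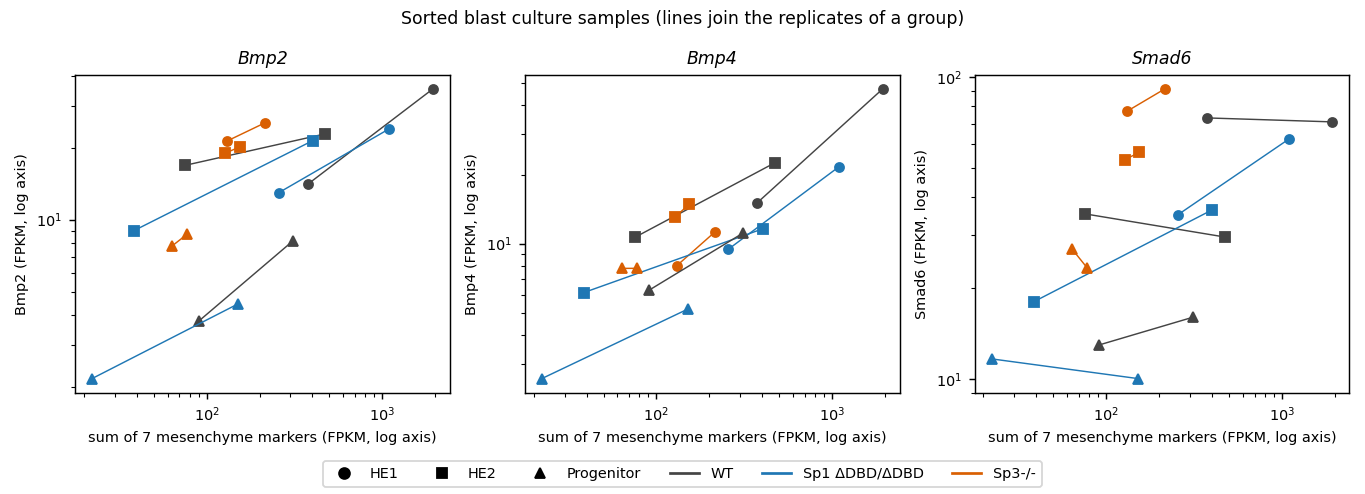
The horizontal axes give the summed FPKM of 7 mesenchyme markers and the vertical axes the FPKM of Bmp2, Bmp4 and Smad6, all on log axes, for the 18 samples of HE1, HE2 and progenitors. Lines join the replicates of a group, and for Bmp2 and Bmp4 all 9 lines run upwards.

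The 3 inhibitors act at different places. Bambi is a pseudoreceptor without a kinase, Smad6 blocks mainly the BMP branch, and Smad7 acts on receptors of both the BMP and the TGF-beta branch. Bambi was at 1.61 and 1.85 FPKM in WT ESC and peaked in Flk1+ cells at 20.3 and 24.9, higher than every other WT sample. It rose by 3.63 ± 0.24 on the log2 scale from ESC (limma adjusted p = 2.87e-10), fell by 1.04 into HE1 (adjusted p = 0.00107) and fell by 1.001 from HE2 to progenitors (adjusted p = 0.00662), whose samples lay at 4.09 and 4.80 FPKM. The last of these ended without HE2 WT replicate 2 (-0.85, adjusted p = 0.0688) or progenitor WT replicate 1 (-0.89, adjusted p = 0.0698).

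Smad6 peaked a stage later. In WT it was at 0.620 and 0.892 FPKM in ESC, 24.3 and 25.4 in Flk1+ cells, 71.0 and 73.1 in HE1, 29.5 and 35.2 in HE2, and progenitors had 16.0 and 12.9. No pair of neighbours in this order overlapped, and 93.9% of genes lay below it in HE1. All 4 steps were called, +4.88 ± 0.26, +1.53 ± 0.26, -1.16 ± 0.26 and -1.16 ± 0.26 on the log2 scale (limma adjusted p = 2.01e-11, 7.48e-05, 0.00415 and 0.00523). The last ended without HE2 WT or progenitor WT replicate 2 (adjusted p = 0.0505 and 0.0551), and the step from HE1 to HE2 in a fit of those populations alone (adjusted p = 0.0519). Smad7 had a flatter course, with WT means of 14.6 FPKM in ESC, 25.1 in Flk1+ cells, 35.8 in HE1 and 13.1 in HE2, while progenitors had 8.41. Its 4 steps were called too, +0.78, +0.50, -1.45 and -0.65 on the log2 scale (limma adjusted p = 0.00106, 0.0228, 2.1e-05 and 0.0188), of which those from ESC to Flk1+ cells and from HE1 to HE2 held in every alternative. The step into HE1 ended with a correction for GC content and length (+0.30, adjusted p = 0.199) and without either Flk1+ WT sample or HE1 WT replicate 2 (adjusted p up to 0.163), and the last without replicate 2 of HE2 or progenitors (-0.46 and -0.40, adjusted p = 0.18 and 0.239). The GC content of Smad6, 60.8%, and Smad7, 56.9%, stands above the median of 49.9% over all genes.

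Among the Id genes, Id1 and Id3 were highest in HE1 without overlap, no step of Id2 was called and Id4 was scarce. For Id3 the difference between Flk1+ cells and HE1, +0.34 on the log2 scale, was not called (limma adjusted p = 0.341). Id3 was at 18.2 and 14.6 FPKM in WT ESC, 117 and 109 in Flk1+ cells, 137 and 150 in HE1, 71.9 and 68.7 in HE2, and progenitors had 9.59 and 6.34. Its order had no overlap between neighbours, and it was the most abundant of the 9 genes in WT HE1. It rose by 2.78 ± 0.29 on the log2 scale from ESC to Flk1+ cells (limma adjusted p = 1.45e-07), fell by 1.03 from HE1 to HE2 (adjusted p = 0.0155) and fell by 3.15 from HE2 to progenitors (adjusted p = 6.7e-07), the steepest fall of the 9 genes at any WT step. The fall from HE1 to HE2 was not called when any 1 of its 4 samples was left out (adjusted p between 0.053 and 0.0809), and the other 2 changes held.

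Id1 was at 24.5 and 19.0 FPKM in WT ESC, 43.2 and 31.6 in Flk1+ cells, 118 and 93.2 in HE1, 56.9 and 35.8 in HE2, and progenitors had 12.6 and 12.4. HE1 was highest without overlap, and HE2 overlapped with Flk1+ cells. Into HE1 it rose by 1.5 ± 0.40 on the log2 scale (limma adjusted p = 0.00396), and it then fell by 1.21 (adjusted p = 0.0366) and 1.84 (adjusted p = 0.00369). The first of the falls ended without either HE1 sample or HE2 replicate 2 (-0.88 at the smallest, adjusted p = 0.245), and the second without HE2 replicate 1 (-1.51, adjusted p = 0.0643). The difference between ESC and Flk1+ cells, +0.77, was not called (adjusted p = 0.116).

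Id2 was at 19.5 and 14.5 FPKM in WT ESC, 12.6 and 13.7 in Flk1+ cells, 15.7 and 30.1 in HE1, 14.6 and 12.9 in HE2, and progenitors had 13.1 and 3.70. All neighbours in its order overlapped, and none of its 4 steps was called by limma (unadjusted p between 0.0305 and 0.403). Id4 lay between 0.00083 and 2.29 FPKM in the 30 samples, with at most 22.9% of genes below it in any WT population, and fell by 2.34 on the log2 scale from HE1 to HE2 (limma adjusted p = 0.0135), where WT values went from 0.831 and 1.26 FPKM to 0.0997 and 0.148. It was not called there without HE1 replicate 2 or HE2 replicate 1 (adjusted p = 0.0884 and 0.0785). The antisense model A330033J07Rik and the lincRNA Gm49291 overlap it on the other strand by 1396 and 1364 bases. How few reads lie behind such levels is unknown.

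**Figure D3:**
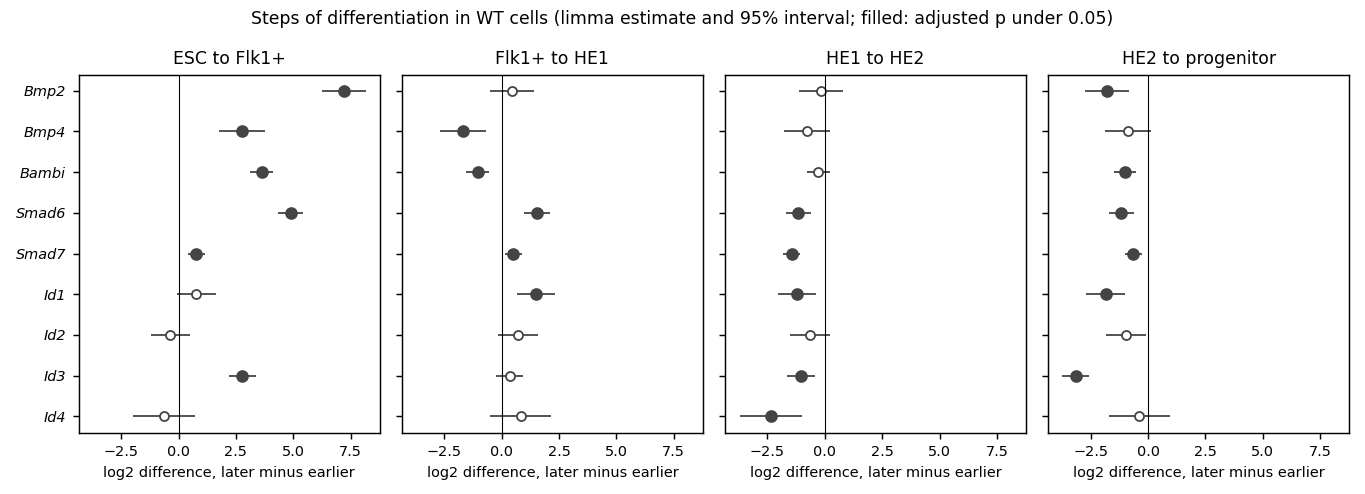
The log2 difference, later minus earlier population, is plotted for each gene at 4 steps in WT cells with its 95% confidence interval from limma, and filled points have an adjusted p under 0.05. All filled points are to the right of 0 from ESC to Flk1+ cells and to the left of 0 at the last 2 steps, while from Flk1+ to HE1 cells Bmp4 and Bambi fall and Smad6, Smad7 and Id1 rise.

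Over the 9 genes the first step took 6 upwards and 0 downwards, where 27.4% and 24.7% of all genes tested went up and down. No gene fell at an unadjusted p under 0.05. From Flk1+ to HE1, 3 of 9 rose and 2 fell, beside 23.5% and 29.5% of all genes. The last 2 steps took 5 and 6 of the 9 down, beside 10.2% and 7.78% of all genes. None of the 9 rose there, beside 11.7% and 5.46%, and 0 rose at an unadjusted p under 0.05 in limma. The medians of the 9 log2 differences at the 4 steps were +2.77, +0.50, -1.03 and -1.001, and the medians over all genes +0.03, -0.08, +0.05 and +0.04. Leaving out WT HE1 replicate 1, with its high mesenchyme sum, the steps gave 20 calls in place of 22.

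In ESC, Smad6 was higher in both mutants. WT ESC had 0.620 and 0.892 FPKM, Sp1ΔDBD/ΔDBD ESC 2.33 and 2.64, and Sp3-/- ESC 2.88 and 3.68. Neither mutant overlapped with WT, which the comparisons share as control. The difference was +1.61 ± 0.26 (SE) on the log2 scale in Sp1ΔDBD/ΔDBD (limma adjusted p = 0.000862) and +1.99 ± 0.26 in Sp3-/- (adjusted p = 0.000201), or 3.29 and 4.34 times the WT mean. These levels stayed well below the 24.3 FPKM or more of WT Flk1+ cells. The Sp3-/- call held in all 11 alternatives and without any 1 of its 4 samples. The Sp1ΔDBD/ΔDBD call held in 10 of 11 and without any 1 sample, but not in a fit of ESC alone (adjusted p = 0.0785). That fit called only 2 of 14525 genes, in place of 880. The Flk1 mesoderm list summed to 3.22 and 1.74 FPKM in WT ESC, 3.79 and 4.12 in Sp1ΔDBD/ΔDBD and 2.59 and 1.96 in Sp3-/-, and the mesenchyme list, which feeder cells could carry, to 45.5 and 22.2, 58.0 and 43.6, and 16.5 and 32.0 FPKM. The mesoderm sums of Sp3-/- ESC lay between the WT samples and those of Sp1ΔDBD/ΔDBD ESC above both. Of the mesenchyme sums in Sp3-/- ESC 1 was below both WT samples and the other between them, and the part of either list in the Smad6 level was not tested.

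The excess of Smad6 was not seen at later stages of Sp1ΔDBD/ΔDBD cells. Flk1+ cells had 20.7 and 23.6 FPKM, HE1 62.3 and 35.0, HE2 36.3 and 18.0 and progenitors 10.02 and 11.6, all with a mean below that of WT. The log2 differences were -0.17, -0.62, -0.33 and -0.41, and none was called (limma adjusted p = 0.831, 0.148, 0.495 and 0.394). In the mutants' difference from WT relative to that in ESC, Smad6 was the 1 gene of 9 called in each of these populations, by -1.78, -2.24, -1.94 and -2.02 on the log2 scale (limma adjusted p = 0.0182, 0.00261, 0.00821 and 0.00705), where 1.74%, 3.99%, 2.62% and 3.15% of all genes were called.

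In Sp3-/- cells Smad6 was at 29.1 and 31.3 FPKM in Flk1+ cells, 91.2 and 76.9 in HE1, 56.2 and 53.2 in HE2, and progenitors had 27.0 and 23.4. Every one of these 8 samples was above both WT samples of its population. The log2 differences of +0.28, +0.22, +0.76 and +0.80 were nonetheless not called (limma adjusted p = 0.553, 0.667, 0.061 and 0.0673). Relative to the effect in ESC, Smad6 was again the 1 gene of 9 called in Flk1+ and HE1 cells, by -1.71 and -1.77 (adjusted p = 0.0249 and 0.0198), beside 1.48% and 2.16% of all genes. In HE2 and progenitors none of the 9 was called in limma, beside 0.544% and 1.34% of all genes, with 2 and 4 genes at an unadjusted p under 0.05. With a pseudocount of 1 the Flk1+ differences from ESC were no longer called in either mutant (-1.16, adjusted p = 0.0815, and -1.01, adjusted p = 0.124), nor was HE1 in Sp3-/- (-1.07, adjusted p = 0.0906). In fits of the compared populations alone HE2 of Sp1ΔDBD/ΔDBD and HE1 of Sp3-/- cells ended too (adjusted p = 0.0779 and 0.0888).

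Between the mutants themselves Smad6 was higher in Sp3-/- than in Sp1ΔDBD/ΔDBD cells by 0.84 ± 0.26 on the log2 scale in HE1, 1.09 ± 0.26 in HE2 and 1.21 ± 0.26 in progenitors (limma adjusted p = 0.0402, 0.0085 and 0.00579). Without the lower Sp1ΔDBD/ΔDBD HE1 sample, replicate 2, the first was +0.43 (adjusted p = 0.453), and it also ended without either Sp3-/- sample (adjusted p = 0.214 and 0.102). The second was +0.59 without Sp1ΔDBD/ΔDBD HE2 replicate 2 (adjusted p = 0.189) and ended narrowly without either Sp3-/- sample (adjusted p = 0.052 and 0.0517), and the progenitor call ended without Sp3-/- replicate 1 (+1.11, adjusted p = 0.0581) and in a fit of progenitors alone (adjusted p = 0.0512). The first 2 also ended with the correction for GC content and length (+0.47, adjusted p = 0.236, and +0.61, adjusted p = 0.122). Of the 9 genes, 1 was called between the mutants in each of Flk1+, HE1, HE2 and progenitor cells, beside 7.39%, 13.6%, 15.9% and 11.6% of all genes. In ESC none was called by limma, beside 9.67% of all genes, with Id1 and Id3 at an unadjusted p under 0.05.

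**Figure D4:**
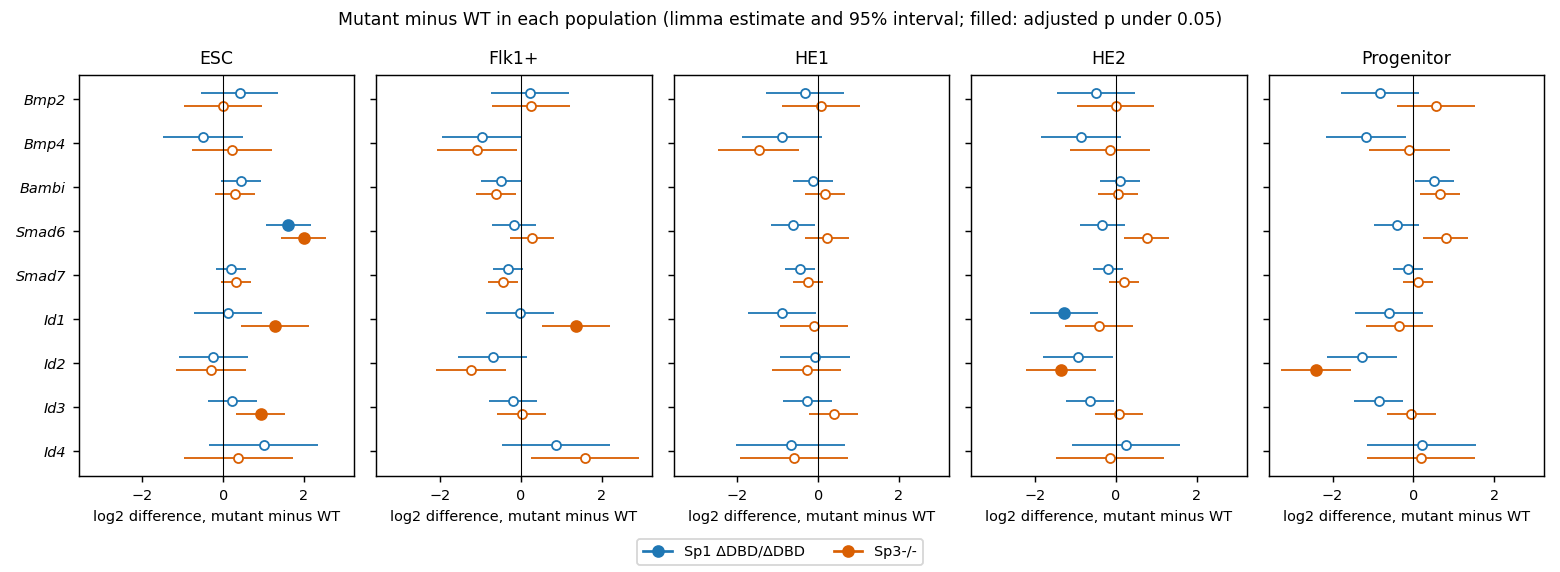
The log2 difference, mutant minus WT, is plotted for each gene and population with its 95% confidence interval from limma. Filled points have an adjusted p under 0.05, and there are 2 among 45 for Sp1ΔDBD/ΔDBD and 6 among 45 for Sp3-/- cells.

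Id1 and Id3 were higher in Sp3-/- ESC, and Id1 also in Sp3-/- Flk1+ cells. Id1 was at 57.7 and 47.9 FPKM in Sp3-/- ESC against 24.5 and 19.0 in WT, and at 99.5 and 93.0 in Sp3-/- Flk1+ cells against 43.2 and 31.6. The groups did not overlap in either population, and the Sp3-/- Flk1+ samples were near the WT HE1 samples at 118 and 93.2. The log2 differences were +1.28 ± 0.40 (limma adjusted p = 0.0458) and +1.38 ± 0.40 (adjusted p = 0.0301). Id3 was at 33.4 and 28.9 FPKM in Sp3-/- ESC against 18.2 and 14.6, higher by 0.93 ± 0.29 on the log2 scale (limma adjusted p = 0.0442), while in Flk1+ cells, at 112 and 117 against 117 and 109 FPKM, it differed by 0.02.

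These 3 calls were narrow. Each ended when any 1 of its 4 samples was left out (adjusted p up to 0.244 for Id1 in ESC, 0.243 for Id3 and 0.245 for Id1 in Flk1+ cells), and those in ESC ended with the correction for GC content and length (+1.07, adjusted p = 0.0848, and +0.69, adjusted p = 0.121). Sp3-/- Flk1+ cells kept more of the 5 ESC markers, 204 and 193 FPKM against 52.7 and 43.3 in WT, and had more of the Flk1 mesoderm list, 544 and 594 against 339 and 318. The part of these in the Id1 level was not tested.

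Id1 in Sp1ΔDBD/ΔDBD cells differed from this. In ESC and Flk1+ cells it was at 20.5 and 26.6, and 43.1 and 31.0 FPKM, overlapping with WT, and log2 differences were +0.11 and -0.02. In HE2 it was at 32.3 and 10.4 FPKM against 56.9 and 35.8, a fall of 1.29 on the log2 scale (SE 0.40, limma adjusted p = 0.0482), and in HE1, at 77.5 and 40.9 against 118 and 93.2, the difference of -0.89 was not called (adjusted p = 0.176). The HE2 call ended without replicate 2 of the mutant (-0.48, adjusted p = 0.604), without WT replicate 1 (-0.96, adjusted p = 0.308) and when GC content and length were corrected for (-1.10, adjusted p = 0.0559). Mutant replicate 2 had a mesenchyme sum of 38.7 FPKM against 402 in replicate 1, and the WT samples had 473 and 75.5. Its epithelial sum was 9.02 against 135, and in WT these were 242 and 16.0. Id1 was higher in the replicate with more epithelial markers in 9 of 9 sorted pairs, which are not independent and in which this was always replicate 1. In HE2 Krt8, Krt18 and Krt19 reached 100, 116 and 25.6 FPKM, while Epcam and Cdh1 were at 0.112 and 0.61 or less. The part of cells with such keratins in the fall was not tested. Between the mutants Id1 was 1.39 ± 0.40 higher on the log2 scale in Sp3-/- Flk1+ cells (limma adjusted p = 0.0396), a call that ended when any 1 of the 4 samples was left out (adjusted p up to 0.342) or GC content and length were corrected for (+1.17, adjusted p = 0.0686).

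Id2 was called lower in Sp3-/- HE2 cells and progenitors. In progenitors it was at 1.20 and 1.28 FPKM against 13.1 and 3.70 in WT, and at 3.05 and 2.65 in Sp1ΔDBD/ΔDBD cells. The Sp3-/- samples lay below all others, and the WT replicates were far apart. The log2 difference was -2.41 ± 0.41 in Sp3-/- (limma adjusted p = 0.00176) and -1.27 ± 0.41 in Sp1ΔDBD/ΔDBD cells (adjusted p = 0.0618). With 1 sample left out the Sp3-/- difference was smallest without WT replicate 1, at -1.51. A fit of progenitors alone ended the call (limma adjusted p = 0.149), but that fit called only 15 of 14525 genes, in place of 1257. In HE2 Id2 was at 5.21 and 5.41 FPKM in Sp3-/- against 14.6 and 12.9, a fall of 1.36 on the log2 scale (SE 0.41, limma adjusted p = 0.0345) that ended when any 1 of the 4 samples was left out and once GC content and length were corrected for (-1.13, adjusted p = 0.0714). In Flk1+ cells it was at 5.13 and 5.92 against 12.6 and 13.7 FPKM, -1.24 ± 0.41 and not called (adjusted p = 0.0541), and in ESC and HE1 the groups differed by -0.31 and -0.29. Between replicates, the sample with the higher sum of 6 erythroid markers had the higher Id2 in 8 of 9 sorted pairs, which are not independent. Between genotypes the sums did not always follow Id2. They were 1543 and 3498 FPKM in Sp3-/- progenitors against 13661 and 4529 in WT, but in Sp3-/- HE2, at 501 and 819, they lay between the WT samples at 986 and 487. In Sp1ΔDBD/ΔDBD progenitors, at 9733 and 7288, they also lay between those of WT, and in Sp1ΔDBD/ΔDBD HE1 they were 22.2 and 12.1 against 105 and 44.2 with an Id2 difference of -0.09. The part of erythroid cells in the progenitor fall was not tested.

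Along differentiation, steps of Id2 were called in the mutants that were not called in WT. Sp1ΔDBD/ΔDBD samples went from 9.47 and 6.86 FPKM in Flk1+ cells to 22.4 and 18.6 in HE1 and then to 10.6 and 4.84 in HE2, without overlap. In Sp3-/- cells they went from 5.13 and 5.92 to 17.2 and 18.3 and back to 5.21 and 5.41, with close replicates. The rise into HE1 was 1.33 on the log2 scale in Sp1ΔDBD/ΔDBD cells (limma adjusted p = 0.0124) and 1.67 in Sp3-/- cells (adjusted p = 0.00276), beside +0.72 in WT (adjusted p = 0.154). The falls into HE2 and then progenitors were -1.502 and -1.301 in Sp1ΔDBD/ΔDBD cells (adjusted p = 0.015 and 0.0362) and -1.72 and -2.02 in Sp3-/- cells (adjusted p = 0.00848 and 0.00333), beside -0.66 and -0.96 in WT. Of all genes, 46.1%, 20.0% and 15.8% were called at these 3 steps in Sp1ΔDBD/ΔDBD cells and 44.0%, 14.4% and 8.77% in Sp3-/- cells. Whether the steps differ between genotypes was not tested.

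The ligands, Bambi and Smad7 had no call between mutant and WT in the fit whose values are reported here. Some alternatives called them, with and without a replicate block. For Bmp4 the Flk1+ samples of both mutants were about level with each other, 41.8 and 47.4 FPKM in Sp1ΔDBD/ΔDBD and 40.8 and 41.4 in Sp3-/- cells, and all below the WT samples at 79.1 and 94.8. The differences of -0.96 and -1.07 on the log2 scale (SE 0.47) had limma adjusted p of 0.288 and 0.149, with 95% intervals of -1.95 to 0.03 and -2.07 to -0.08. Mesenchyme sums in these Flk1+ samples were 6.63 to 8.73 FPKM in the mutants against 17.3 to 20.5 in WT, epithelial sums 118 to 190 against 293 to 309, and their part was not tested. In HE1 the samples were at 21.7 and 9.46 in Sp1ΔDBD/ΔDBD and 11.2 and 8.03 in Sp3-/- cells against 47.2 and 15.1 in WT, with differences of -0.89 (adjusted p = 0.265) and -1.48 (adjusted p = 0.0511). They turned on which WT sample was used, since without WT HE1 replicate 1 the second was -0.66 (adjusted p = 0.535), and without replicate 2 both were called, at -1.71 and -2.30 (adjusted p = 0.0444 and 0.00989). The mesenchyme sum in Sp3-/- HE1, 215 and 131 FPKM, was also below that of WT, and its part was not tested. Progenitors had 5.19 and 2.59 FPKM of Bmp4 in Sp1ΔDBD/ΔDBD cells against 11.1 and 6.27 (-1.17, adjusted p = 0.141). With the replicate number within a population as a block, Bmp4 was called in Sp1ΔDBD/ΔDBD HE1 and progenitors (adjusted p = 0.048 and 0.0152) and in Sp3-/- Flk1+ cells and HE1 (adjusted p = 0.0178 and 0.00376). Without a block, a pseudocount of 1, the GC and length correction and sample weights called it in Sp3-/- HE1 (limma adjusted p = 0.0416, 0.0376 and 0.0129). Flk1+ cells fitted alone gave a call in Sp1ΔDBD/ΔDBD and Sp3-/- cells (adjusted p = 0.0383 and 0.0256). Sample weights also called Bambi and Smad7 in Sp3-/- Flk1+ cells (adjusted p = 0.00539 and 0.00253).

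The Bmp2 differences from WT ran from -0.82 to +0.56 on the log2 scale in the 10 comparisons, with limma adjusted p between 0.312 and 1.0. In mutant ESC it was at 0.104 FPKM or less. Bambi ranged from 12.1 to 18.8 FPKM in mutant Flk1+ cells, below both WT samples at 20.3 and 24.9 (-0.48 in Sp1ΔDBD/ΔDBD and -0.62 in Sp3-/- cells, adjusted p = 0.281 and 0.0912), and from 5.24 to 7.83 in mutant progenitors, above both WT samples at 4.09 and 4.80 (+0.52 and +0.66, adjusted p = 0.192 and 0.0941). Smad7 differed by -0.45 to +0.31 on the log2 scale, with adjusted p from 0.103 upwards, and the Id4 differences ran from -0.68 to +1.59, the latter in Sp3-/- Flk1+ cells at 2.06 and 1.60 against 0.577 and 0.496 FPKM (adjusted p = 0.112).

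Against WT, limma called 1 of the 9 genes in Sp1ΔDBD/ΔDBD ESC and 1 in HE2, where 6.06% and 9.67% of all genes tested were called. It called none in Flk1+ cells, HE1 and progenitors, where 5.54%, 10% and 8.78% of all genes were called and 0, 3 and 4 of the 9 had an unadjusted p under 0.05. In Sp3-/- cells it called 3 of 9 in ESC and 1 each in Flk1+, HE2 and progenitor cells, beside 11.3%, 12.6%, 13.8% and 8.65% of all genes. In Sp3-/- HE1 none was called, with 1 at an unadjusted p under 0.05, beside 10.9% of all genes. Summed over populations, 2 of 45 differences were called for Sp1ΔDBD/ΔDBD and 6 of 45 for Sp3-/- cells. The study's methods use a change of more than 2 times. By that rule on mean FPKM + 0.1, with a floor of 3 FPKM in the higher group added here, 3 of 45 and 8 of 45 passed, beside 3.62% and 4.33% of all genes and populations. Of the 11 that passed, Bmp4 in Sp1ΔDBD/ΔDBD progenitors and in Sp3-/- Flk1+ and HE1 cells, and Id2 in Sp1ΔDBD/ΔDBD progenitors and Sp3-/- Flk1+ cells, were not called by limma. Without the floor 13 passed, the additional ones being Smad6 in Sp1ΔDBD/ΔDBD ESC and Id4 in Sp3-/- Flk1+ cells. The median log2 difference of the 9 genes in Sp1ΔDBD/ΔDBD cells went from +0.22 in ESC over -0.19, -0.44 and -0.50 to -0.61 in progenitors, and in Sp3-/- cells it was +0.31, +0.02, -0.11, -0.01 and +0.11, while medians of all genes were between -0.02 and +0.05. All 9 genes had a lower mean log2 value in Sp1ΔDBD/ΔDBD HE1 than in WT, 7 of 9 did so in Flk1+ cells, HE2 and progenitors, and 2 of 9 in ESC. How many of all genes were lower was not counted, and none of the 9 was called in HE1. There WT replicate 1 had mesenchyme and epithelial sums of 1937 and 810 FPKM against 376 and 77.7 in replicate 2, whose part was not tested.

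The counts moved between alternatives, and so did those over all genes, given further below. With the mesenchyme sum of each sample as a further term, an alternative chosen after seeing the data, 14 differences from WT were called in place of 8, with a replicate block 17, and with no trend of variance on level 5. Without Sp1ΔDBD/ΔDBD HE2 replicate 1 or 2 there were 17 and 13 calls, without either WT or either Sp3-/- sample of Flk1+ cells, or either Sp3-/- HE2 sample, 4, and without either WT or Sp3-/- ESC, Sp1ΔDBD/ΔDBD Flk1+, Sp3-/- HE1 or Sp3-/- progenitor sample 5.

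The wider BMP pathway list held 57 genes, of which 52 were in the table, and 42 of the 43 besides the 9 above were tested. In WT, 28 of 42 rose and 7 fell from ESC to Flk1+ cells, 13 rose and 18 fell into HE1, 0 rose (1 at an unadjusted p under 0.05) and 18 fell into HE2, and 2 rose and 19 fell into progenitors. Of all genes tested, 27.4%, 23.5%, 11.7% and 5.46% rose at these steps and 24.7%, 29.5%, 10.2% and 7.78% fell. Medians of the 42 log2 differences at these steps were +1.34, -0.40, -0.67 and -0.55, and the medians over all genes +0.03, -0.08, +0.05 and +0.04. Bmper, a secreted modulator of BMPs, and Msx2, a homeobox target, appeared in Flk1+ cells at 29.0 and 62.6 FPKM (means), where Gdf3, a ligand of pluripotent cells, was lost from 37.8 to 0.0351. Into HE1 the endothelial receptors Acvrl1 and Eng rose 28.3 and 22.8 times to 43.9 and 169 FPKM, as the ligands Bmp7 and Bmp5 fell from 21.4 and 13.9 to 0.175 and 0.248. Then Bmp6 fell from 38.6 to 8.52 FPKM in HE2 and to 0.863 in progenitors, Rgmb, a coreceptor, from 3.92 to 0.762 in HE2, and Acvrl1 from 14.1 to 1.18 in progenitors. The highest WT means of Bmp4, Bmp5 and Bmp7 were thus in Flk1+ cells and that of Bmp6 in HE1.

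In the mutants 20 of 210 differences of these 42 genes were called for Sp1ΔDBD/ΔDBD cells, 10 of them higher, and 29 of 210 for Sp3-/- cells, 10 of them higher. These are 9.52% and 13.8%, near the shares of all genes called, which ran from 5.54% to 10% and from 8.65% to 13.8% over the populations. The median log2 difference of the 42 genes was between -0.001 and +0.21 over the Sp1ΔDBD/ΔDBD populations and between -0.24 and +0.13 over the Sp3-/- populations. In Sp1ΔDBD/ΔDBD cells Bmper fell in HE1, from 10.8 and 19.2 FPKM in WT to 2.94 and 3.76 (-2.08 ± 0.36 on the log2 scale, limma adjusted p = 0.00111), and in HE2, from 5.97 and 6.53 to 1.27 and 1.37 (-2.16 ± 0.36, adjusted p = 0.000746). Eng fell in Flk1+ cells and progenitors (-0.83 and -0.86, adjusted p = 0.0223 and 0.0137), Twsg1, which binds BMPs outside the cell, in ESC (-0.54, adjusted p = 0.0141), Fstl1, a follistatin-like protein, in progenitors (-1.48, adjusted p = 0.0158) and Hey1, a target shared with Notch, in HE1 (-1.14, adjusted p = 0.048). Smad1, which carries the signal, rose in HE2 from 20.5 and 18.7 to 30.1 and 24.2 FPKM (+0.46 ± 0.14, adjusted p = 0.0486).

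For the intracellular inhibitors besides the 3 above, limma called 8 of 25 differences in Sp3-/- cells, all 8 lower, and 17 were not called. Between 8.65% and 13.8% of all genes were called in these comparisons, in either direction. In Sp1ΔDBD/ΔDBD cells 0 of 25 were called. At an unadjusted p under 0.05 there were 12 lower and 1 higher in Sp3-/- cells, and 6 lower and 3 higher in Sp1ΔDBD/ΔDBD cells. Skil, a corepressor of Smads, fell in HE2 from 28.2 and 28.6 FPKM to 10.7 and 6.52 (-1.75 ± 0.22 on the log2 scale, adjusted p = 9.54e-05). The ubiquitin ligase Smurf2, named after its values were seen, fell in 4 populations, by 0.49 to 0.76. The type II receptor Bmpr2 fell in 3 populations, ESC, HE1 and HE2 (-0.79, -0.90 and -0.84, limma adjusted p = 0.0098, 0.00523 and 0.0064), in HE1 from 32.5 and 31.9 to 15.8 and 18.7 FPKM. Bmpr1a and Bmp5 fell in Flk1+ cells (-0.62 and -1.26, adjusted p = 0.017 and 0.0312), Fstl1 in ESC and progenitors (-1.25 and -1.30, adjusted p = 0.0336 and 0.0328), while Hey1 fell in HE1 and rose in progenitors (-1.27 and +1.51, adjusted p = 0.0272 and 0.0129). Of 35 differences of the ligands besides Bmp2 and Bmp4, 7 were called in Sp3-/- cells, 6 higher and 1 lower. In Sp1ΔDBD/ΔDBD cells 5 of 35 were called, 4 higher and 1 lower. Over all genes 8.65% to 13.8% and 5.54% to 10% were called in these comparisons, in either direction.

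Among the E proteins that Id proteins bind, named here after their values were seen, Tcf3 was higher in Sp3-/- ESC and HE2 (+0.85 and +0.64 on the log2 scale, limma adjusted p = 0.0117 and 0.0433), at 36.4 and 41.5 FPKM against 20.2 and 26.8 (means). Tcf4 was lower in Sp3-/- HE1 and HE2 (-0.47 and -0.65, adjusted p = 0.0334 and 0.00509). Tcf12 was not called by limma in any of the 10 comparisons (unadjusted p from 0.365 upwards). Tal1, the blood factor that pairs with them, was called in Sp1ΔDBD/ΔDBD ESC, at 1.06 against 0.331 FPKM (+1.58, adjusted p = 0.00961).

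The profiles most like each gene over the 15 group means were sought among 12016 genes with a mean above 3 FPKM in some group. Pearson's r on the log2 scale was 0.996 and 0.993 for Rspo3 and Aplnr with Bmp2, 0.938 and 0.929 for Vash2 and Dlg5 with Bmp4, and 0.975 and 0.972 for Prdm6 and Pcdhgc4 with Bambi. Smad6 was most like Fam171a2 and Bcl9l (r = 0.979 and 0.978) and Smad7 most like Gpr107 and Sh3bp4 (r = 0.950 and 0.948). For the Id genes these were Mmp14 and Ptms with Id1 (r = 0.933 and 0.925), Myl12b and Akap2 with Id2 (0.933 and 0.929), Pdlim3 and Fscn1 with Id3 (0.970 and 0.968), and Fam102a and Trim26 with Id4 (0.969 and 0.959). These values are descriptive, since the groups share stages and cultures.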

How the data were processed

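RNA was prepared with a stranded, ribosomal RNA depleted total RNA kit. Per the labels and the submitters' processing notes, the authors trimmed the reads and used HISAT2 2.1.0 (genome mm10) for alignment and StringTie 1.3.3 for FPKM values. Genes had to exceed 1 FPKM in some sample, and quantile normalisation followed. The deposited values are these FPKM, without log transformation; read depth is unknown, so only the spread between replicates measures error. All 30 samples were grouped by title.

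Values were analysed as log2(FPKM + 0.1) with limma 3.58.1 (R 4.3.3; 15 group means, intensity trend, Benjamini-Hochberg over 14525 genes). Mutants were compared with WT in each population, with each other and, as a difference of differences, with ESC, and WT steps between successive populations. An exact permutation test of 2 against 2 samples cannot go below p = 0.333 and was not used. The code was checked on data with known differences. Gene positions and composition are from GENCODE M21 (GRCm38), and 14370 symbols matched directly. The 9 genes, the pathway, E protein and marker lists were chosen with earlier results of these data known. Other genes named were limited to at most 2 per mutant comparison with the largest called change, above 3 FPKM and without overlap, to at most 2 rises and 2 falls per WT step, and to the 2 most similar profiles for each member; E proteins and Smurf2 lie outside this rule. Alternatives were another pseudocount and filters, a replicate block, correction for GC content and length, no trend, sample weights, separate populations, and leaving out each sample.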

Additional observations from a re-analysis of the deposited data

Results flagged for a closer look

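The effect of a mutation on Smad6 differed between ESC and later populations in 6 of 8 comparisons, tested as a difference of differences with limma over all genes. In Sp3-/- HE2 and progenitors the difference was not called (limma adjusted p = 0.15 and 0.112). For Sp1ΔDBD/ΔDBD cells the effect relative to WT, minus that in ESC, was -1.78 on the log2 scale in Flk1+ cells, -2.24 in HE1, -1.94 in HE2 and -2.02 in progenitors, and for Sp3-/- cells -1.71 in Flk1+ cells and -1.77 in HE1. All 6 share the ESC values, in which WT lay at 0.620 and 0.892 FPKM, so they are not independent of each other. With a pseudocount of 1 the calls in Flk1+ cells of both mutants and in Sp3-/- HE1 ended (limma adjusted p = 0.0815, 0.124 and 0.0906). When either of the ESC WT samples or any other sample in a comparison was left out, the difference stayed negative in every case, between -2.65 and -1.44, and the call was kept in 8 of 8 cases for Sp1ΔDBD/ΔDBD HE1, HE2 and progenitors, in 4 of 8 for Sp1ΔDBD/ΔDBD Flk1+ cells and Sp3-/- HE1, and in 1 of 8 for Sp3-/- Flk1+ cells.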

How the results depend on the processing

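Of the 9 genes, 8 differences between mutant and WT were called; this became 17 with the replicate block within population, 16 with the block and the correction for GC content and length, 15 with sample weights, 14 with the mesenchyme sum as a term (chosen after seeing the data) and 5 without the intensity trend, and leaving out single samples gave 4 to 17. For the difference of effects from ESC the 6 calls became 3 with a pseudocount of 1, 10 with the block and the GC and length correction and 11 with sample weights, and 3 to 10 with single samples left out. Between the mutants the 4 calls became 9 with the replicate block, 7 with the block and the GC and length correction, 1 with that correction alone, 2 without the trend, 17 with the mesenchyme term, 1 with each population fitted alone and 2 to 12 with single samples left out. The 22 calls in WT steps and the 11 by the fold rule stayed within 1.5 times under the alternatives, at 17 to 23 and 10 to 15 with samples left out. The wider pathway list went from 49 calls to 74 with the block and GC correction and 19 with populations fitted alone, and 41 to 57 with samples left out. Mutant calls over all 14525 genes moved too. The block and the mesenchyme term raised them in every comparison, and leaving out the trend lowered them in all but Sp1ΔDBD/ΔDBD ESC. Sample weights gave 5378 in place of 1835 in Sp3-/- Flk1+ cells and 360 in place of 1276 in Sp1ΔDBD/ΔDBD progenitors. Both samples of a group always had the same weight, so no single replicate was weighted down against the other. The weights were 2.35 and 2.01 in WT and Sp3-/- Flk1+ cells and 0.657 and 0.449 in WT and Sp1ΔDBD/ΔDBD progenitors. Populations fitted alone gave fewer in all but Sp3-/- Flk1+ cells. The causes were not tested. No difference that was called, in the values reported or under an alternative, changed sign, but uncalled ones did: 170 values of 76 of the 243 differences had another sign under an alternative, 111 of them with a sample left out. Without 1 sample, Smad6 in Sp1ΔDBD/ΔDBD HE2 ran from -0.84 to +0.17 on the log2 scale and Bmp4 from HE1 to HE2 in WT from -1.60 to +0.04.

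The labels name no batch behind the replicate numbers, and each comparison has 2 numbered pairs. Over 10052 genes, deviations of same-numbered WT and Sp1ΔDBD/ΔDBD samples correlated at 0.255 to 0.481, those of WT and Sp3-/- at 0.00318 to 0.194, and those of HE1, HE2 and progenitors at 0.382 to 0.458 within WT, 0.451 to 0.649 within Sp1ΔDBD/ΔDBD and 0.0264 to 0.161 within Sp3-/- cells. The numbers thus carry shared variation in some groups, its source is not given, and the fit without the block was kept. Besides Bmp4, the replicate block called Id3 in Sp1ΔDBD/ΔDBD progenitors (adjusted p = 0.0352) and, in Sp3-/- cells, Id2 and Id4 in Flk1+ cells (0.046 and 0.0328) and Smad6 in HE2 and progenitors (0.0453 and 0.0484). Depth is unknown, so the precision of low values such as those of Id4 cannot be given.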
